A study of Rattus norvegicus with 8 samples.

Results

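The most variable genes of rat epitrochlearis muscle after exercise and a meal were described here, array by array. They are the probe sets whose deposited level differed by more than 0.01 between the highest and the lowest of 8 arrays. A probe set is a set of short probes on the array that reads 1 transcript. Of 31042 probe sets that are not array controls, 209 passed this threshold. Of these, 40 were left out by name, because their symbols start with 1 of 20 name stems (interferon-induced and immediate early genes, chemokines, myosins, troponins, collagens, heat shock proteins and a few others). The remaining 169 probe sets, 0.544% of all, are called the variable set below. They were chosen by their levels on these arrays, so their ranges and groups are descriptions and were not tested.

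All 8 animals were male Sprague-Dawley rats, 6 weeks old. Each had 3 days of swimming practice, 5 g of restricted diet on the day before, and a swim of 2 h. A test meal was then given by gavage, with 44 kJ or roughly 15% of what a rat needs daily. It held carbohydrate with an amino acid mixture (AAM, n = 4) or carbohydrate with whey protein hydrolysate (WPH, n = 4), which is whey protein cut into peptides. Every rat swam and was fed, so neither exercise nor feeding itself was compared. The labels call the samples biological replicates, and they name neither an array batch nor the barrel in which each rat swam with others.

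The epitrochlearis is a small forelimb muscle made mostly of fast fibres. A piece of muscle also holds fat cells, connective tissue, vessels and immune cells, and in bulk tissue fewer cells of a type and less RNA per cell cannot be told apart. Interferons switch on antiviral and antigen-presenting genes in most cell types, fat cells express a distinct set of lipid-handling genes, and contraction and fasting change transcripts of growth, metabolism and protein breakdown. All 12 fast fibre markers measured, such as the calcium pump of fast fibres, had a mean level of 10.45 or more. The array medians were all 6.66.

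The deposited levels are on a log2-like scale between 5.28 and 14.25, but their differences between arrays were very small: the median range of a probe set was 1.09e-05. A difference on this scale cannot be read as a fold change. Values below are deviations, that is the level on an array minus the probe set's median over the 8 arrays. Within the variable set the range had a median of 0.0239 and reached 0.604, and 13 probe sets ranged over more than 0.1. Mean levels ran from 5.68 to 11.63 with a median of 7.68, and 128 of the 169 were at or above the median of all probe sets. The genes with the widest ranges were near or below the array medians. These were Arg2 (mean level 6.67), Fam111a (6.02), Slfn4 (6.53), Pck1 (6.59) and Ddx60 (6.19). Mtarc1, next in range, was at 8.17. Of the 169 probe sets, 138 carry 1 symbol (120 genes), 2 carry several and 29 have no symbol in the annotation used.

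The threshold fell within a continuous run of ranges. Just inside it were Plaat1, a phospholipid-modifying enzyme, at 0.01, LOC102549726 at 0.01005, Tcim at 0.01012 and Fbxo32, the muscle ubiquitin ligase atrogin-1, at 0.01028. Just outside were the interferon-induced Slfn5 at 0.00998, Tnfrsf12a, the receptor of TWEAK, at 0.00995, the unnamed 1392633_at at 0.00976 and the phosphodiesterase Pde7a at 0.00964.

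One rat stood apart most often. The array farthest from the median of the 8 was AAM replicate 3 for 72 of the 169 probe sets (42.6%), above the median for 47 and below it for 25. WPH replicate 4 was farthest for 27 (16%) and AAM replicate 1 for 22 (13%). Over all 31042 probe sets the same shares were 19.8%, 14.6% and 14.1%. Among the 123 probe sets with ranges between 0.005 and 0.01, which the rule did not choose, AAM replicate 3 was farthest for 47.2% and WPH replicate 4 for 17.9%. Without AAM replicate 3, 142 of the 169 still ranged over more than 0.01, and without both AAM replicate 3 and WPH replicate 4, 119 did. The barrel, the array batch and RNA quality of these rats are not in the labels, and their part in this was not tested.

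**Figure D1:**
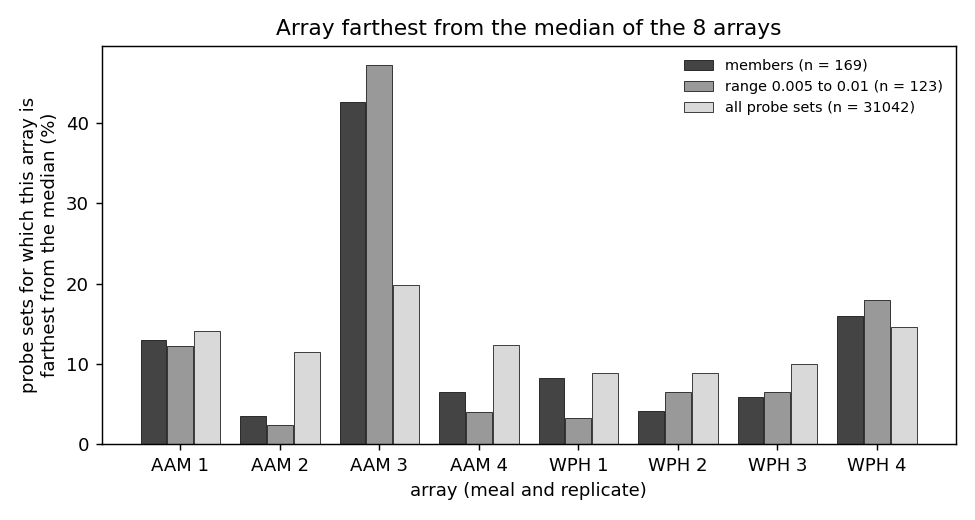
Share of probe sets, in percent, for which each of the 8 arrays lies farthest from the median of the 8, for the variable set (members), for probe sets with ranges between 0.005 and 0.01 and for all probe sets. AAM replicate 3 takes 42.6%, 47.2% and 19.8% of these, the tallest bar in each set.

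No probe set of the variable set passed the test between the meals. With limma and Benjamini-Hochberg adjustment, 0 of the 169 were called between WPH and AAM (0% of all 31042 probe sets). At an unadjusted p below 0.05, limma gave 3 of the 169, all higher after WPH, and 1110 of 31042 probe sets (3.58%). The groups did not overlap for 2 of the 169, both higher after WPH, whereas 2.23% of all probe sets did not overlap (1.08% higher after WPH). The range over all arrays includes the meal difference, so nothing is read from these counts about the set.

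The widest gap between the meals relative to its error was that of 1377092_at, which has no symbol. Its deviations were -0.0253, -0.00796, -0.0137 and -0.0262 after AAM and 0.0321, 0.0132, 0.00796 and 0.0228 after WPH. All 4 WPH rats lay above all 4 AAM rats, with a difference of 0.0373 (SE 0.00668, limma adjusted p = 1). Rrad, a Ras-related GTPase of muscle, deviated by -0.000247, -8.21e-05, -0.000503 and -0.00287 after AAM and by 0.0127, 0.00624, 8.21e-05 and 0.00303 after WPH. The groups did not overlap, and most of the difference of 0.00644 (SE 0.00267, limma adjusted p = 1) came from WPH replicates 1 and 2. Adamts1, a secreted protease, differed by 0.00892 (SE 0.00353, limma adjusted p = 1), and its groups overlapped.

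To describe what varied together apart from the meal, each probe set was centred on its meal means, probe sets were joined by their correlation over the 8 arrays, and the tree was divided at a distance of 0.5. This gave 7 groups of 5 or more that held 147 of the 169 probe sets, with 69, 32, 24, 6, 6, 5 and 5 members. The median correlation within groups was between 0.68 and 0.88, and over all 14196 pairs of the variable set it was 0.09. In group 1 the median was 0.71, with pairs down to -0.35, and it was 0.46 without AAM replicate 3. All such correlations share the same 8 arrays, and the groups were formed from them. The score of a group on an array averages the standardized levels of its members. The scores of groups 1 and 2 ran against each other (r = -0.83 over 8 arrays), as did those of groups 2 and 3 (r = -0.96), while groups 1 and 3 ran together (r = 0.68).

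**Figure D2:**
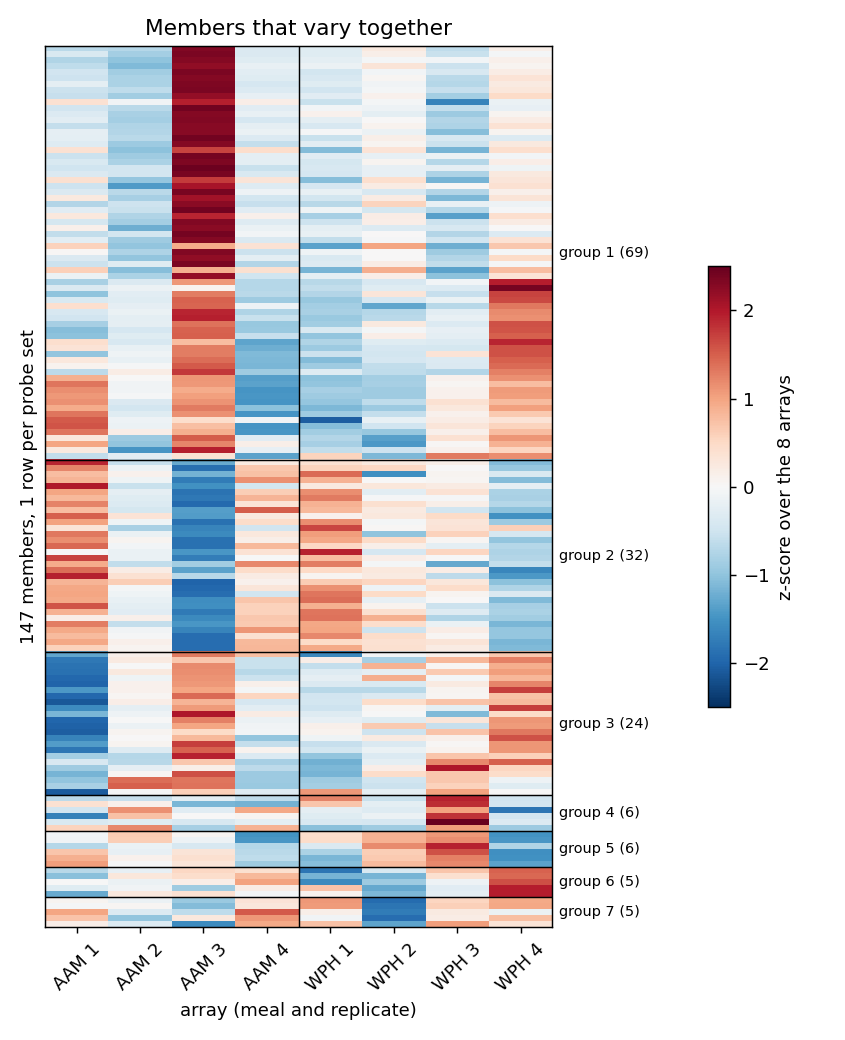
Standardized level (each probe set's deviation from its mean in units of its SD over 8 arrays) of the 147 members of the 7 groups, in rows, on the 8 arrays, in columns. AAM replicate 3 is high across group 1 and low across group 2, and the smaller groups differ in which arrays are high and low.

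Group 1 held 69 probe sets and 51 genes, and all 69 were above the median on AAM replicate 3. A finer division of the tree at 0.3 separated it into 39 probe sets led by interferon-induced and antigen-presenting genes, 16 whose widest range was that of Coq10b, 10 of which 7 belong to adipocyte marker genes, and 4 others. These are called the interferon-led, the Coq10b and the adipocyte-marker part.

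The interferon-led part was highest in a single rat. Of its 39 probe sets, 37 were highest on AAM replicate 3, and its score there was 2.18 against -0.79 to 0.17 on the other 7 arrays. Slfn4, a Schlafen family member of myeloid cells, deviated by -0.043, -0.0489, 0.325 and -0.00372 after AAM and by 0.00372, 0.0694, -0.039 and 0.058 after WPH. AAM replicate 3 was far above every other array, and the other 7 arrays overlapped between the meals. Ddx60, an RNA helicase of antiviral defence, deviated by -0.00353, -0.0365, 0.19 and -0.00223 after AAM and by 0.00223, 0.0333, -0.0165 and 0.0196 after WPH. WPH replicates 2 and 4 were next, as for Slfn4. Bst2, which tethers virus particles to the cell, deviated by -0.0228, -0.033, 0.0938 and -0.00581 after AAM and by -0.00362, 0.00438, 0.00362 and 0.0105 after WPH. Without AAM replicate 3 the ranges of these genes were much smaller, at 0.118 in place of 0.374 for Slfn4, 0.0698 in place of 0.227 for Ddx60 and 0.0435 in place of 0.127 for Bst2.

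Other named members act at several steps of an interferon response, and all of those given here were highest on AAM replicate 3. Rsad2 (range 0.0302) and Cmpk2 (0.0129) act on nucleotides in antiviral defence, and their genes are neighbours on chromosome 6. Usp18 (0.0748), a brake on interferon signalling, Herc6 (0.0855), Rtp4 (0.0906), Lgals3bp (0.0998), Sp110 (0.0151) and the partners Parp9 (0.0226) and Dtx3l (0.0113) were further members. For antigen presentation, the class I genes RT1-T24-3 (0.123), RT1-S3 (4 probe sets, the widest 0.0831), RT1-CE10 (0.0362) and RT1-CE16 (0.0291) were joined by the peptide transporter Tap1 (0.014). RT1-CE10 deviated by 0.0179 on AAM replicate 3, and about as far downward on AAM replicate 2 and WPH replicates 1 and 3 (-0.0159, -0.0172 and -0.0183). RT1-CE16 was lowest on the same 3 arrays. RT1 genes are near-identical copies, so their probe sets may read more than 1 of them. Without AAM replicate 3 the median correlation among the 39 was 0.71 in place of 0.95, and 28 of the 39 kept a range above 0.01.

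In 2 lists of such genes, 13 of 32 measured interferon genes beyond the left-out names and 7 of 22 antigen presentation genes were in the variable set, where 0.844% of all 14217 named genes were. All 13 interferon genes fell in group 1. The lists were written with earlier results of these data known, and their counts are a description. The probe sets left out by name leaned on the same rat: AAM replicate 3 was the farthest array for 24 of those 40 (60%). Of the immune marker lists, 0 of 13 neutrophil and 0 of 20 lymphocyte markers were in the variable set, and 1 of 16 macrophage markers was (Gpnmb, in group 2). The summed level of the macrophage list ran from 130.545 to 130.577 after AAM and from 130.556 to 130.560 after WPH. This sum includes Gpnmb, which was chosen for its range (0.032), so it is not a readout apart from that gene. The lowest mean level among the markers of this list was 6.55, below the array medians. On AAM replicate 3 the score of this list was 0.37, below the 0.79 of AAM replicate 1. The part of immune cells in the interferon pattern was not tested.

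Promoter sequence was not used by the rule, and an interferon motif was found in most matched promoters of the interferon-led part. The interferon-stimulated response element was searched as GAAANNGAA on both strands, from 250 bases before to 50 bases after each gene's start in RefSeq promoters of the GRCr8 build. Of the 120 genes, 101 matched a promoter. The motif was in 9.5% of all 27457 promoters and in 14 of the 22 matched genes of the interferon-led part (63.6%). It was in 1 of 10 of the Coq10b part, 1 of 9 of the adipocyte-marker part, 2 of 21 in group 2 and 2 of 17 in group 3. In all, 12 motifs were searched. The NF-kB motif was in 7 of the 22 interferon-led promoters (31.8%, against 7.6% of all), and the C/EBP motif in 4 of 9 of the adipocyte-marker part (44.4%, against 18.3% of all). A match is a description of letters, not a bound site, and neighbouring or copied genes are not independent. Stretches around the matches are printed for 9 genes, picked as examples from 20 with a match before the start. Each is on the gene's own strand, 5′ to 3′, with the motif in capitals; a match on the opposite strand reads TTCNNTTTC.
Ddx60: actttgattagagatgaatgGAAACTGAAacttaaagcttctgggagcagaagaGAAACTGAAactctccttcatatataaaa
Bst2: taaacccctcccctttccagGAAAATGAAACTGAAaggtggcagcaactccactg
Lgals3bp: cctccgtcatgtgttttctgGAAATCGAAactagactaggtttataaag
Rsad2: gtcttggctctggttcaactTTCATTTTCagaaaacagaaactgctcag
Cmpk2: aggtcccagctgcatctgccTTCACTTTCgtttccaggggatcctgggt
Sp110: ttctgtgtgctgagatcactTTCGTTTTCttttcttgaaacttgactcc
Igtp: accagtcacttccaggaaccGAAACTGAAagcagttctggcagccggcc
Irgm2: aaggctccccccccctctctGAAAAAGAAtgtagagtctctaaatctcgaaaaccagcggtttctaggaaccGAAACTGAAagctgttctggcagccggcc
Tap1: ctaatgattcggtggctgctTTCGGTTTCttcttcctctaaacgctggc

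In GRCr8 these stretches lie at chr16:33208850-33208932 on the minus strand (Ddx60), chr16:18255064-18255118 on the minus strand (Bst2) and chr10:104127870-104127918 on the minus strand (Lgals3bp). Those of Rsad2 and Cmpk2 are at chr6:48788238-48788286 on the minus strand and chr6:48802739-48802787 on the plus strand. Sp110 is at chr9:93670688-93670736 on the minus strand and Tap1 at chr20:4668635-4668683 on the minus strand. Igtp and Irgm2, interferon-inducible GTPases next to each other, are at chr10:42874924-42874972 and chr10:42889796-42889896 on the plus strand. The first capital lies between 50 (Lgals3bp) and 154 (Irgm2) bases before the transcript start used in the promoter table. Ddx60, Bst2 and Irgm2 each have 2 matches, and in Bst2 they overlap.

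The adipocyte-marker part separated the rats in another way. Its 10 probe sets were all above the median on AAM replicates 1 and 3 and WPH replicate 4, and none was above it on AAM replicate 4 or WPH replicates 1 and 2. Pck1, which serves glycerol synthesis for fat storage in fat cells, deviated by 0.081, -0.00568, 0.103 and -0.141 after AAM and by -0.106, -0.0887, 0.00568 and 0.106 after WPH. Both meals held high and low rats, and the groups overlapped over nearly the whole range. Adipoq, the fat cell hormone adiponectin, deviated by 0.0437, -0.00233, 0.0353 and -0.0424 after AAM and by -0.0315, -0.0265, 0.00233 and 0.0256 after WPH.

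The same 3 rats were above the median, and the same 3 not, for the glutathione transferase Mgst1 (range 0.0507), the lipid droplet proteins Cidec (0.0315) and Plin1 (0.0104), the lipogenic Thrsp (0.0309 and 0.0248), adipsin (Cfd, 0.0257) and the esterase Ces1d (0.0151). Zeb2, a transcription factor and not a fat cell marker, was the tenth. The median correlation was 0.97, and was also 0.97 without AAM replicate 3. Of the 22 adipocyte markers measured, 6 were in the variable set. The lowest mean level among the 22 was 6.09, below the array medians. Their summed level ran from 174.780 to 175.196 after AAM and from 174.838 to 175.181 after WPH. The score of the 22 was 0.47, 0.00, 0.48 and -0.64 after AAM and -0.13, -0.52, 0.08 and 0.26 after WPH. That of the 10 probe sets was 1.23, -0.14, 0.98 and -1.26 after AAM and -1.07, -0.72, 0.17 and 0.82 after WPH. Sum and score of the 22 include the 6 genes chosen for wide ranges (Pck1 alone ranged over 0.246). They are therefore not a readout apart from those 6. Whether these rats' samples held different amounts of fat was not tested.

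The Coq10b part of group 1 was high in 2 rats, 1 of each meal. All 16 probe sets were above the median on AAM replicate 3 and WPH replicate 4, and the highest array was always 1 of these. Coq10b, a coenzyme Q-binding protein of mitochondria, deviated by -0.0237, 0.00119, 0.0805 and -0.0186 after AAM and by -0.0167, -0.00119, 0.0173 and 0.129 after WPH. Slc25a25, a mitochondrial carrier of ATP-Mg, deviated by -0.000521, 0.000521, 0.0239 and -0.00709 after AAM and by -0.00782, -0.000928, 0.00248 and 0.0263 after WPH. In both genes AAM replicate 3 and WPH replicate 4 lay above the other 6 arrays.

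Igf1 and Igfbp5 were in the same part. The 3 probe sets of Igf1, the muscle growth factor, ranged over 0.012 to 0.0133 and Igfbp5, which binds it, over 0.0286. Cish, a feedback inhibitor of cytokine receptors, deviated by 0.0466 on WPH replicate 4 and by 0.0069 on AAM replicate 3. The signalling regulator Rgs2, the muscle protein Ky, the sialidase Neu2, the nicotinamide riboside kinase Nmrk2 and Nrep completed the named members. The median correlation was 0.91, and 0.89 without AAM replicate 3. Sgk1, a kinase induced by glucocorticoids, the NF-kB inhibitor Nfkbia, Tcim and Otud1 were the remaining 4 members of group 1.

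**Figure D3:**
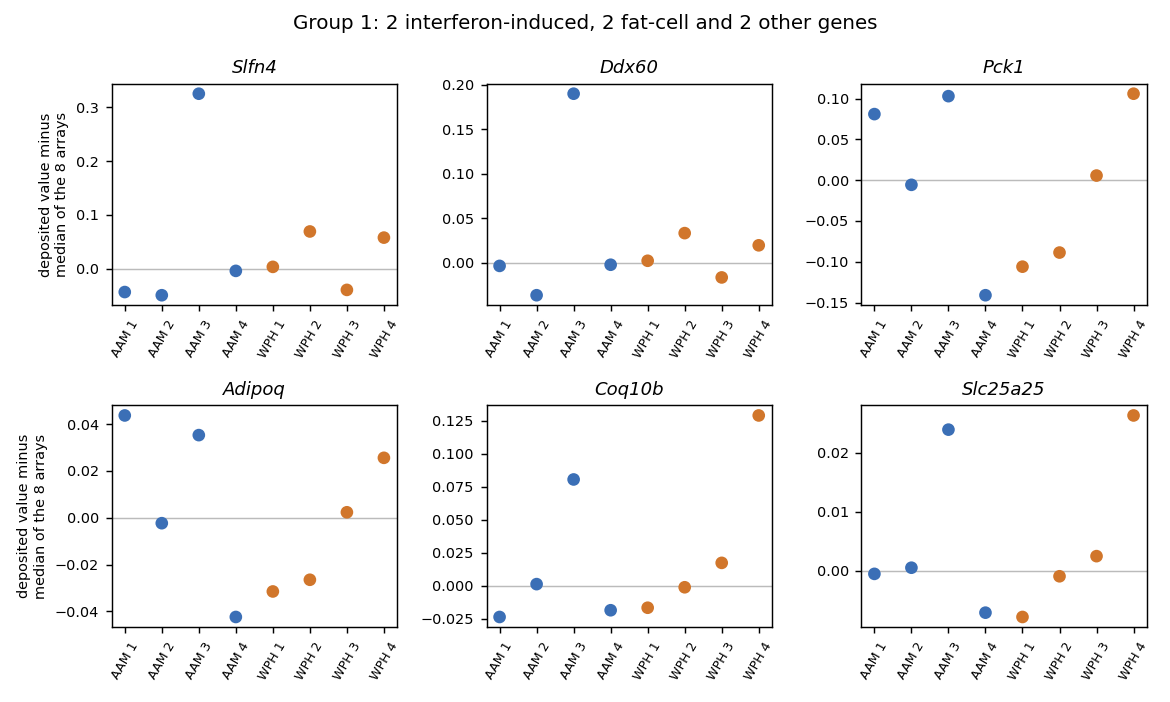
Deviation of the deposited level from the median of the 8 arrays (vertical, log2-like scale) for 6 genes of group 1, 1 point per rat, blue for AAM and orange for WPH. AAM replicate 3 is high in all 6; Pck1 and Adipoq are also high on AAM replicate 1 and WPH replicate 4, and Coq10b and Slc25a25 on WPH replicate 4.

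Group 2 ran against group 1 (r = -0.83 between scores) and more closely against group 3 (r = -0.96). Its 32 probe sets were all above the median on AAM replicate 1 and none was above it on AAM replicate 3, where 27 had their lowest value. Arg2, the mitochondrial arginase, deviated by 0.329, -0.145, -0.274 and 0.00805 after AAM and by 0.0377, 0.0115, -0.00805 and -0.242 after WPH. Its values were low on AAM replicate 3 and WPH replicate 4, high on AAM replicate 1, and overlapped between meals. Its range of 0.604, the widest of the variable set, was 0.312 without AAM replicate 1, below the 0.547 of Fam111a (group 4) on the same 7 arrays. Ampd3, an AMP deaminase, deviated by 0.0478, -0.0195, -0.107 and 0.0204 after AAM and by 0.0142, 0.0127, -0.0127 and -0.0597 after WPH. AAM replicate 3 and WPH replicate 4 were again the lowest.

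The group held several kinds of genes. Fbxo32 (range 0.0103) and Fbxo30 (0.0132) are ubiquitin ligases of muscle wasting. Gclm (0.0119), of glutathione synthesis, and Osgin1 (0.0127) respond to oxidative stress. Depp1 (0.0458) is a target of FOXO factors, Gas5 (0.0365) a non-coding RNA that accumulates when growth stops, and Sat1 (0.0164) breaks down polyamines. Further members were the chromatin reader Mllt3 (3 probe sets, 0.0251 to 0.0309), the heat shock factor Hsf2 (0.0191 and 0.0113), the mitochondrial ribosomal protein Mrpl41 (0.0288), the tubulin Tubb4b (0.0187) and Gpnmb (0.032). Without AAM replicate 3, the median correlation was 0.78 in place of 0.88, and 22 of the 32 kept a range above 0.01. Without AAM replicate 1 the range of Gpnmb was 0.0164.

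Group 3 was low in AAM replicate 1. None of its 24 probe sets was above the median there, 18 had their lowest value there, and all 24 were above the median on AAM replicate 3 and WPH replicate 4. Retsat, a retinol saturase, deviated by -0.0609, -0.000125, 0.0498 and 0.0268 after AAM and by -0.0746, -0.00848, 0.000125 and 0.0236 after WPH. The lowest value was that of WPH replicate 1, with AAM replicate 1 next. Tfrc, the transferrin receptor for iron uptake, deviated by -0.0238, 0.0609, 0.0587 and -0.0209 after AAM and by -0.0201, -0.00645, 0.035 and 0.00645 after WPH. It was high on AAM replicates 2 and 3, and a second probe set of Tfrc had the same 3 highest arrays.

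Connective tissue genes were part of group 3. Tnmd, the tendon protein tenomodulin, deviated by -0.046, 0.000694, 0.011 and -0.0173 after AAM and by -0.000694, -0.0239, 0.0146 and 0.0247 after WPH. The matrix proteoglycans Lum (range 0.0395) and Fmod (0.013) were also lowest on AAM replicate 1. Of 23 fibroblast and matrix markers without collagens, 4 were in the variable set, 3 of them in group 3. The other, Clec3b, lay outside the 7 groups and was above its median on AAM replicate 1, by 0.00778. The lowest mean level among the 23 was 5.99, below the array medians. Their summed level ran from 201.283 to 201.384 after AAM and from 201.327 to 201.408 after WPH. This sum includes Tnmd, Lum and Fmod, chosen for wide ranges (Tnmd alone ranged over 0.0706), so it is not a readout apart from them. After AAM the score of the list ran from -0.64 (replicate 4) to 0.29 (replicate 3), with -0.53 on replicate 1. After WPH it ran from -0.59 (replicate 2) to 1.12 (replicate 4). The part of these markers in group 3 was not tested. Other members of group 3 were the water channel Aqp4 (0.0283), Smad3 (0.0238), which carries TGF-beta and myostatin signals, Vegfa (0.0136), the vessel growth factor, Deptor (0.0107), an inhibitor of mTOR, and the clock repressor Bhlhe40 (0.0116). Without AAM replicate 1, 17 of the 24 kept a range above 0.01, and the ranges of Lum (0.0242), Fmod (0.00708) and Aqp4 (0.0141) were over 1.5 times smaller.

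In the 4 smaller groups the array farthest from the median was a WPH rat for most members. In group 4, all 6 probe sets were above the median on WPH replicate 3. Fam111a, a protease that restricts viral and aberrant replication, deviated by -0.0277, -0.00901, 0.0578 and -0.0232 after AAM and by 0.38, -0.0056, 0.523 and 0.0056 after WPH. WPH replicates 1 and 3 lay far above the other 6 arrays, and the other WPH rats were within the AAM range. Ryr3, a calcium release channel (range 0.132), the repair protein Xirp1 (0.0263), the epoxide hydrolase Ephx2 (0.0159) and Rcan1 (0.0128), an inhibitor of calcineurin, were the other named members. Without WPH replicate 3 the median correlation in group 4 was 0.29 in place of 0.68 and the range of Xirp1 was 0.0163. Without WPH replicate 4 that of Ryr3 was 0.0716.

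In group 5, WPH replicate 3 was the highest and WPH replicate 4 the lowest array for all 6 probe sets. Mtarc1, a molybdenum enzyme of the outer mitochondrial membrane, deviated by -0.0274, 0.0335, -0.0163 and -0.15 after AAM and by 0.0163, 0.0539, 0.0735 and -0.151 after WPH. AAM replicate 4 and WPH replicate 4 lay well below the other 6 arrays, and a second Mtarc1 probe set had the same 2 low arrays. Ppargc1a, the coactivator that drives mitochondrial gene expression, had 3 probe sets in this group with ranges from 0.0109 to 0.0127. The widest deviated by 0.00259, -0.00106, 0.00106 and -0.00299 after AAM and by -0.00346, 0.00226, 0.00629 and -0.00644 after WPH. A probe set of the class II gene RT1-Bb (0.0239) was the last member.

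Group 6 was highest on WPH replicate 4 for 5 of 5 probe sets. Pfkfb3, which makes the activator of glycolysis fructose 2,6-bisphosphate, deviated by -0.00194, 0.00163, -0.0119 and 0.00643 after AAM and by 0.0152, -0.0185, -0.00163 and 0.0361 after WPH. The microtubule protein Eml1 (range 0.0488) and C10h5orf15 (0.0336) were its other named members, and without WPH replicate 4 the median correlation was 0.28 in place of 0.72 and the range of Pfkfb3 0.0337 in place of 0.0545. Group 7 was lowest on WPH replicate 2 for 4 of 5 probe sets. Cited2, a transcription coregulator that responds to hypoxia and stretch, deviated by -0.00123, -0.00322, -0.0102 and 0.00123 after AAM and by 0.00791, -0.0192, 0.00292 and 0.0066 after WPH. Ddit4, an inhibitor of mTORC1 (0.0193), Gadd45g (0.0145) and Myc (0.0111) shared the group, and of its 4 genes Gadd45g and Myc are on the list of early contraction genes. Myc was the exception, with its lowest value on AAM replicate 3.

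**Figure D4:**
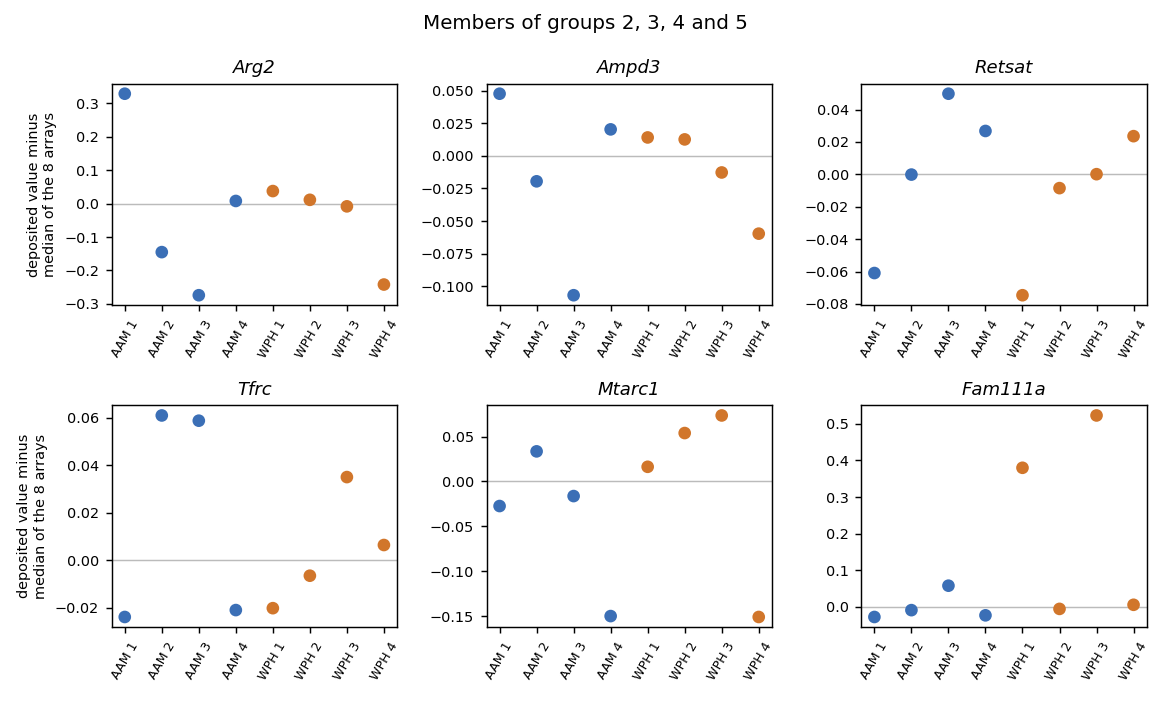
Deviation of the deposited level from the median of the 8 arrays (vertical, log2-like scale) for Arg2 and Ampd3 (group 2), Retsat and Tfrc (group 3), Mtarc1 (group 5) and Fam111a (group 4), 1 point per rat, blue for AAM and orange for WPH. Arg2 and Ampd3 are lowest on AAM replicate 3 and WPH replicate 4, and Fam111a stands out on WPH replicates 1 and 3.

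The 22 probe sets outside these groups included several muscle stress genes. Csrp3, a sensor protein of the Z-disc that is abundant in slow fibres, deviated by 0.0151, -0.000479, -0.0588 and -0.0534 after AAM and by 0.000479, 0.00785, -0.00254 and 0.023 after WPH. AAM replicates 3 and 4 were low, and Mustn1, a nuclear protein of regenerating muscle (range 0.0126), and Mybph (0.0117), a thick filament protein, were lowest on the same 2 arrays. Sln, an inhibitor of the calcium pump, deviated by 0.0122, 0.00181, -0.00164 and -0.0024 after AAM and by 0.0147, 0.00164, -0.00427 and -0.00478 after WPH, with AAM replicate 1 and WPH replicate 1 high. Prkag3 (0.0801), the AMPK subunit of fast fibres, was lowest on AAM replicate 1 and highest on WPH replicate 4. Of 12 slow fibre markers, 3 were in the variable set (Csrp3, Sln and Tpm3), and of 12 fast fibre markers 0 were.

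The fixed lists beyond interferon contributed fewer genes. Of 27 muscle stress genes 7 were in the variable set, of 56 early contraction genes 8, of 29 fasting and fatty acid genes 3 and of 45 cytokine and acute inflammation genes 2. There was 1 gene each from fat synthesis (of 20), oxidative stress (of 23), the clock (of 19) and ATF4 targets (of 32), and 0 of 23 cell cycle genes.

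Other probe sets of the same genes, which the rule did not choose, were a separate readout. For 35 genes there were 60 such pairs, with a median correlation of 0.80 over the 8 meal-centred arrays, and 39 (65%) were above 0.5. For genes with no probe set in the variable set, the median was 0.35 over 6531 pairs and 39.8% were above 0.5. Members were chosen for wide ranges, and the comparison pairs were not matched to them in level or range. All these pairs share the 8 arrays, and pairs of 1 gene are not independent. The 4 other probe sets of Igfbp5 correlated at 0.96 to 0.98, although their ranges went down to 3.43e-05. That of Cmpk2 reached 0.97, and those of Aqp4 0.92 and 0.78. Others did not follow: the second Slfn4 probe set, with a range of 4.16e-06, had a correlation of -0.27, the 4 of Zeb2 -0.75 to 0.35, and the 11 of Tpm3 -0.33 to 0.79. Without Tpm3, left out after its values were seen, the median over the other 49 pairs was 0.90. The 6531 comparison pairs were not trimmed in this way.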

How the data were processed

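Total RNA of the epitrochlearis muscle of 8 rats was labelled from 100 ng and hybridised to Affymetrix 3' arrays, 1 per rat, per the labels' protocols. Levels were read as the authors deposited them, log2-like values with 1 row per probe set. The submitters' processing notes list R 2.7.2. The handling of background, normalization and probe summary is not given in these sources, so the scale of the differences is unknown. The number of arrays limits the precision. Of 31099 probe sets, 57 array controls were left out. Symbols came from the platform annotation: 20826 probe sets had 1, 436 several and 9780 none. Of the 169 members, 138 gene IDs matched the GRCr8 gene table.

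Ranges, deviations and groups (Pearson correlation of meal-centred values, average linkage, division at a distance of 0.5) were computed in Python 3.11.15 with scipy 1.17.1. WPH was compared with AAM in R 4.3.3 with limma 3.58.1, using lmFit, eBayes and two-sided tests without a block (prior df 0.549). Tested on simulated data for this comparison over 31042 probe sets, limma called 2 of 67 probe sets with a shift of 3 SD, 50 of 67 at 6 SD and 66 of 66 at 12 SD. It made 4 false calls. Named are the 20 widest ranges, up to 10 members per group and 6 per list by range, and the probe sets at the threshold; other examples, such as the second probe sets of a gene, were chosen after their values were seen. The members and lists were chosen with earlier results of these data known. Alternatives were other thresholds, median centring, quantile normalization, the brighter probe sets alone, 1 probe set per gene, other ways to form the groups, a replicate block, a trended robust prior and leaving out arrays.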

Additional observations from a re-analysis of the deposited data

Results flagged for a closer look

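In 166 sets of 4 values (each named probe set and group score within each meal), 13 had 1 rat far from the other 3, where chance alone flags about 1 in 20 (8.3 expected). The number given is the gap between that rat and its nearest neighbour as a share of the whole range of the 4. Since the members were chosen for wide ranges, the count is a description. Over the whole variable set such values occurred in 9.47% of members after AAM and 7.1% after WPH, and in 5.13% and 5.2% of all probe sets. Of the 16 members so marked after AAM, 13 were set by AAM replicate 3.

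AAM replicate 3 was high for Slfn4 (0.879), Herc6 (0.870), Ddx60 (0.849) and Rig1 (0.841), all in group 1. AAM replicate 4 was low for Rrad (0.849) and for the score of group 5, which holds Mtarc1 and Ppargc1a (0.840). WPH replicate 4 was low for Fbxo32 (0.902), Gpnmb (0.837) and Arg2 (0.836), all in group 2. WPH replicate 3 was high for Ephx2 (0.923) and Rcan1 (0.858) in group 4. WPH replicate 2 was low for the score of group 7 (0.971) and for its member Cited2 (0.842).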

How the results depend on the processing

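In place of 169 members, quantile normalization of the deposited values gave 161 and median centring 168; leaving out 1 array gave 142 (without AAM replicate 3) to 167. By construction, a threshold of 0.005 gave 292, one of 0.02 gave 98 and 1 probe set per gene 110. AAM replicate 3 remained the array most often farthest, for 130 of 292 (44.5%) and 46 of 98 (46.9%). The meal comparison had 0 calls, except 5 after quantile normalization, none of them a member. The cause was not tested. The step pattern given under other observations was seen in 18 members and, with a gap of 40%, in 30.

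The size of the largest group changed with the settings. It was 69 and became 41 without meal centring, 39 with Spearman correlation, 35 with complete linkage, 39 with a division at 0.3, and 35 (without AAM replicate 3) to 85 when 1 array was left out. Without AAM replicate 3 and WPH replicate 4, an alternative chosen after seeing the data, it was 42, with 11 groups in place of 7. Sizes alone do not show the same members: with quantile normalization 55 of 75 were of group 1, and without WPH replicate 3 48 of 71. The number of groups was 5 to 9 with 1 array left out. The ranges of 16 of 76 named probe sets shrank by more than the spread within meals without AAM replicate 3, and of 9 without AAM replicate 1.

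Deviations of same-numbered rats of the meals correlated at r = 0.17, 0.14, 0.07 and -0.08 over all probe sets. Over the members these values were 0.43, -0.11, -0.21 and -0.30. Between differently numbered rats they ran from -0.27 to 0.29 over all probe sets and from -0.55 to 0.58 over the members. Neither the labels nor these correlations can settle whether the numbers mark a pairing. With the replicate block limma made 0 calls, and 1367 probe sets had an unadjusted p below 0.05.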

Other observations

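Some members fell into separate levels rather than a gradient. In 18 of 169 members (10.7%) and 1049 of all 31042 probe sets (3.38%), 1 gap of over 50% of the range split the 8 arrays with at least 2 on each side; this description was chosen after seeing the data, and a gap of 40% gave 30 members. For the class II genes RT1-Ba and RT1-Bb, 1 probe set each was low in the same 3 rats, AAM replicate 2 and WPH replicates 1 and 3 (gaps of 57.9% and 65.1% of the range). The other member of each gene differed: that of RT1-Bb was high on WPH replicates 2 and 3 (50.1%), and that of RT1-Ba was highest on AAM replicate 2, by 0.00792. The class I genes RT1-CE10 and RT1-CE16 were also lowest on AAM replicate 2 and WPH replicates 1 and 3, without a gap of over 50%. The unnamed 1377133_at had the widest gap (83.4%), with AAM replicate 4 and WPH replicates 2 and 4 high by 0.0217, 0.0206 and 0.0205 and the other 5 arrays between -0.00233 and 0.00046. The unnamed 1391822_at was low in AAM replicate 1 and WPH replicates 1 and 4, by -0.0283, -0.029 and -0.0289. Fam111a (58.4%) was split by WPH replicates 1 and 3, and both Mtarc1 probe sets (54.5% and 50.3%) by AAM replicate 4 and WPH replicate 4. Genotypes of the rats were not analysed here.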
